A study of Aspergillus nidulans with 2 samples.

Results

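A set of 9 enzymes of the fungal cell wall were followed in mycelia of the mould Aspergillus nidulans, also called Emericella nidulans, exposed to menadione. They are encoded by the genes to which the platform annotation gives the symbols chsA, chsE, chsF, agm1 and chiA1, which act on chitin, and eng2, exgO, bgt1 and bgt3, which act on β-glucan. All probes assigned to these 9 genes were taken, 13 of the 3533 probes on the array, 7 for chitin genes and 6 for glucan genes. A ratio on both arrays was available for 11 of the 13 and for every one of the 9 genes. The study set menadione-exposed against untreated mycelia of strain FGSC 26, for which the labels give no genotype. Cultures grown for 18 h at 37 °C were moved to fresh minimal medium with 0.8 mM menadione (as its sodium bisulfite compound) or without it, and harvested after 6 h. Menadione is a redox-cycling quinone that makes cells release superoxide. RNA of the exposed and of the untreated culture was hybridised together to 2 cDNA arrays read in 2 colours with the dyes exchanged: the menadione RNA carried Cy5 on the array labelled flip and Cy3 on the array labelled flop.

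The wall of an Aspergillus hypha is built on a scaffold of chitin, a chain of N-acetylglucosamine, to which branched β-glucan is attached. Chitin is spun out at the hyphal tip and at septa by membrane-bound chitin synthases from UDP-N-acetylglucosamine, and β-1,3-glucan by a glucan synthase from UDP-glucose. Both polymers are also cut: chitinases and glucanases loosen the wall during growth, branching and autolysis, and glucanosyltransferases cut a glucan chain and rejoin it to another. The genes described here include chitin synthesis and breakdown, and glucan breakdown and transfer. None of the 9 is a glucan synthase, so synthesis is represented by chitin alone.

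Each value is a normalized ratio, read here as log2 of menadione over untreated, so that a positive value is higher with menadione. The log base and the direction are not stated with the values. The direction is a likely one, because the menadione RNA is the first channel of both samples. The ratios of all 2265 probes with both values correlated positively between the arrays (Pearson r = 0.844 over probes, and probes are not replicates). That correlation would be the same with both columns as untreated over menadione, so it cannot decide between these directions. The opposite direction would exchange higher and lower throughout. If instead both columns were red over green, menadione would enter them with opposite signs, and a dye effect shared by the arrays could give a positive correlation. Ratios were tested against 0 by limma across the 2265 probes, and an adjusted p (Benjamini-Hochberg) under 0.05 was taken as passing. Whether the arrays hold separate cultures is not in the labels, so each p-value reflects array-to-array spread alone, possibly technical. In bulk mycelium, fewer hyphae of a kind and less RNA per hypha cannot be told apart.

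Of the 11 probes with both values, 4 passed: 3 were lower with menadione, for chiA1, chsE and chsA, and 1 was higher, for exgO. Over all probes 24.6% passed, 12.2% higher and 12.4% lower. At that share 2.71 of 11 probes would pass, 1.34 higher and 1.36 lower, so the number of calls was near that of the array as a whole. Both arrays exceeded 2-fold in 1 direction for 1 of the 11 probes, an exgO probe that was higher, against 18.2% of all probes (8.83% higher and 9.36% lower). The median of the 2-array means was -0.62 for the 11 probes and 0.035 for all probes. A mean below 0 was found for 8 of the 11, against 48.1% of all probes. The adjusted p-values of the 4 probes lay between 0.0391 and 0.0471 by limma. These calls ended when probes with a value on 1 array alone were kept in the fit (adjusted p from 0.0511 to 0.0601 by limma) and with the unmoderated statistic (adjusted p from 0.284 to 0.326). Averaging the probes of a gene ended 2 of them, those of chsA and exgO, and all 4 remained past the threshold with robust moderation.

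**Figure D1:**
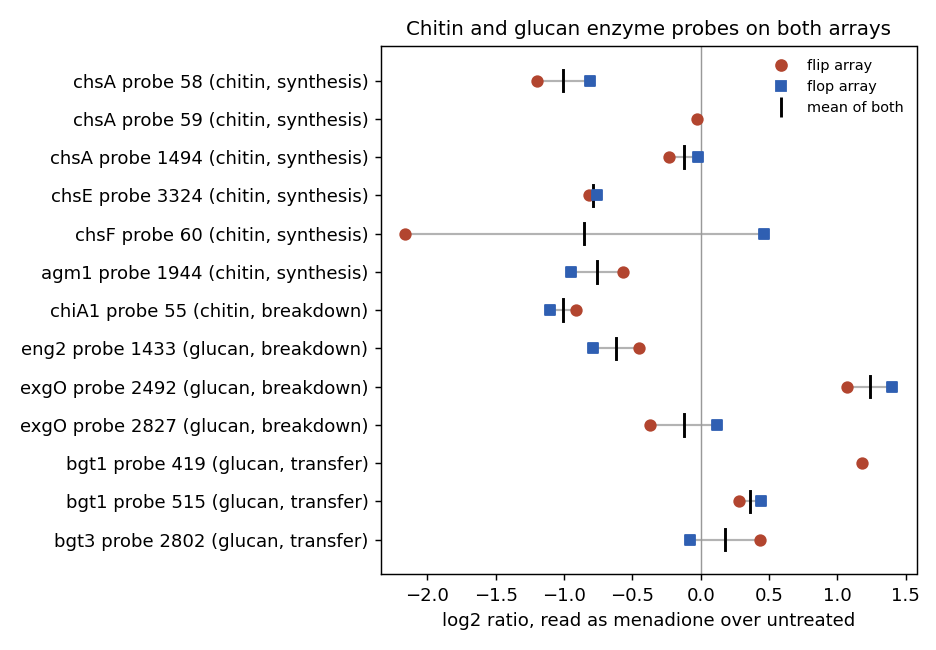
Log2 ratio (x axis, read as menadione over untreated) of each of the 13 probes (rows), with circles for the flip array, squares for the flop array and a black tick for the mean of both. Chitin probes lie left of 0 except for the flop value of chsF, whereas 1 exgO probe and 1 bgt1 probe lie beyond 1 on the right.

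Chitin synthases add N-acetylglucosamine to the growing chain, and 3 genes of this family carried probes. Their symbols are those of the annotation. Chitin synthase symbols have been used differently in different Aspergillus species, so the locus tags identify the genes: AN6318.4 for chsE, AN4566.4 for chsA and AN1555.4 for chsF. For chsE the single probe read -0.82 (flip) and -0.76 (flop). The arrays nearly coincided: 86.2% of all probes had a larger gap between their arrays. The mean of -0.79 ± 0.042 (SD, n = 2), 1.73-fold lower with menadione, passed (limma adjusted p = 0.0461), and 16.6% of all probes had a lower mean.

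The gene chsA was represented by 3 probes, which differed. Probe 58 (the row identifier of the deposited table) read -1.20 (flip) and -0.81 (flop). It fell by 1.005 on the log2 scale, 2.01-fold, with an SD of 0.28 over the 2 arrays (limma adjusted p = 0.0471). Probe 1494 read -0.23 and -0.02, with a mean of -0.125 and a 95% interval from -0.60 to 0.35 (limma adjusted p = 0.543). Probe 59 was measured only by the flip array, at -0.03. The 2 probes with both values were 0.88 apart, more than the largest SD between arrays of either probe, 0.28. Their 95% intervals overlapped, since that of probe 58 ran from -1.57 to -0.44. With both averaged, chsA was at -0.57 ± 0.21 (SD, n = 2) and did not pass in the fit of gene means (limma adjusted p = 0.0969). The decrease of chsA therefore rested on 1 of its 3 probes.

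For chsF the arrays went opposite ways. Its probe read -2.16 on the flip array, where 3.09% of the tested probes were lower, and 0.46 on the flop array, where 66.6% of them were lower. The gap of 2.62 was exceeded by 0.530% of all probes. The mean, -0.85 ± 1.85 (SD, n = 2), had a 95% interval from -3.34 to 1.64 (limma adjusted p = 0.448), so neither a decrease nor an increase was detectable. Means over several genes that include chsF are therefore also given without it, a choice made after its values were seen. Closer arrays in those means follow from that choice.

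The gene agm1 (AN4234.4) encodes phosphoacetylglucosamine mutase, which forms N-acetylglucosamine-1-phosphate on the way to UDP-N-acetylglucosamine, the substrate of the synthases. Its probe read -0.57 (flip) and -0.95 (flop). Both arrays were below 0. The mean of -0.76 ± 0.27 (SD, n = 2) did not pass (limma adjusted p = 0.0696), although its own 95% interval, from -1.32 to -0.20, did not reach 0. After both arrays were scaled to the same spread agm1 passed (adjusted p = 0.0293 by limma), in a fit where 878 of all probes passed against 557 without scaling. It did not pass with centring, robust moderation or averaged probes (limma adjusted p = 0.0615, 0.0730 and 0.0754).

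Chitin breakdown was represented by chiA1 (AN8241.4), a chitinase gene. Its probe read -0.91 (flip) and -1.10 (flop). Both values were lower than those of most probes, with 13.9% (flip) and 11.7% (flop) of the tested probes below chiA1. The mean of -1.005 ± 0.13 (SD, n = 2), a decrease of 2.01-fold with a 95% interval from -1.47 to -0.54, passed (limma adjusted p = 0.0403). It fell short of the size rule, since the flip value did not reach -1. The mean of chiA1 was equal to that of chsA probe 58, so the chitinase gene and 1 probe of a synthase gene were lower by the same amount.

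Glucan breakdown was represented by 2 genes. The endo-β-1,3-glucanase gene eng2 (AN2385.4), whose product cuts within the chain, read -0.45 (flip) and -0.79 (flop). Both arrays were below 0, but the mean of -0.62 ± 0.24 (SD, n = 2) did not pass (limma adjusted p = 0.0888). With both arrays scaled to the same spread, where 878 of all probes passed, eng2 lay just past the threshold (adjusted p = 0.0491 by limma). It did not pass with centring, robust moderation or averaged probes (limma adjusted p = 0.0827, 0.0930 and 0.0915).

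The exo-β-1,3-glucanase gene exgO (AN0779.4), whose product releases glucose from chain ends, had 2 probes that differed more than those of chsA. Probe 2492 read 1.07 (flip) and 1.40 (flop), near the top of both arrays: 90.9% and 91.0% of the tested probes were lower. It rose by 1.24 ± 0.23 (SD, n = 2), 2.35-fold, with a 95% interval from 0.71 to 1.76 (limma adjusted p = 0.0391). Probe 2827 read -0.37 and 0.12, with opposite signs on the arrays and a mean of -0.125 (limma adjusted p = 0.637). Its 95% interval, from -0.75 to 0.50, did not overlap that of probe 2492. The probes were 1.36 apart, against a largest SD between arrays of 0.35. With both averaged, exgO was at 0.56 ± 0.29 and did not pass (limma adjusted p = 0.120). The increase of exgO rested on 1 of 2 probes.

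Glucan transfer was represented by bgt1 (AN10150.4) and bgt3 (AN4700.4), named for β-1,3-glucanosyltransferases. The bgt1 probe 515 read 0.28 (flip) and 0.44 (flop), above 0 on both. Its mean of 0.36 ± 0.11 (SD, n = 2) did not pass (limma adjusted p = 0.153), with a 95% interval from -0.09 to 0.81. The other bgt1 probe, 419, was measured only by the flip array, at 1.18, higher than 92.2% of the tested probes on that array. It had no second array and no test. For bgt3 the probe read 0.43 and -0.08, with a mean of 0.175 ± 0.36 (limma adjusted p = 0.532). Its 95% interval, from -0.47 to 0.82, held 0 and differences of either sign.

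**Figure D2:**
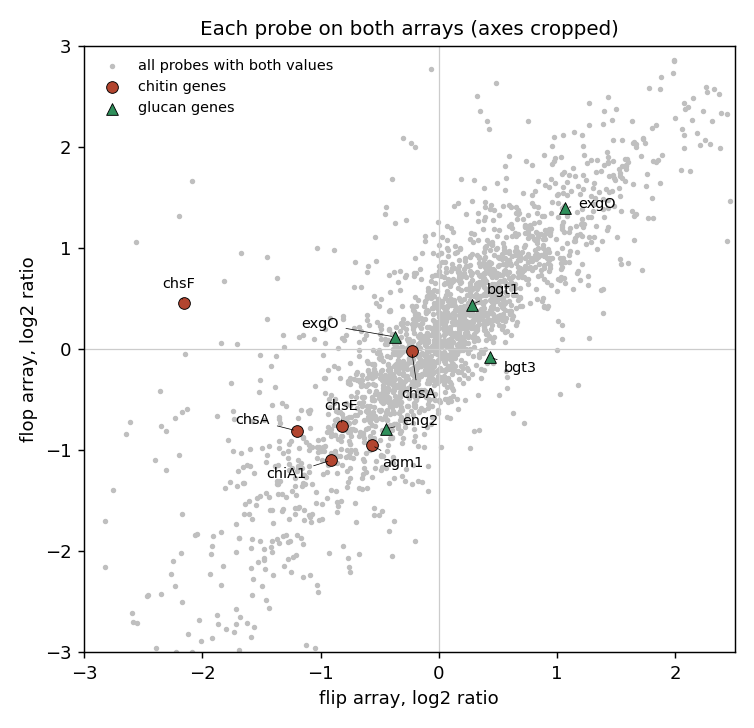
Log2 ratio of each probe on the flip array (x axis) against the flop array (y axis), with all probes as grey points, probes of chitin genes as circles and probes of glucan genes as triangles. The axes show 2192 of the 2265 probes, and 73 lie outside them. The chsF probe stands off the diagonal at -2.16 and 0.46, whereas the other 10 probes lie along it.

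Chitin genes had lower mean ratios than glucan genes on both arrays. With the probes of a gene averaged first, the mean over the 5 chitin genes was -1.04 (flip) and -0.55 (flop), and without chsF -0.75 (flip) and -0.81 (flop). The mean over the 4 glucan genes was 0.15 (flip) and 0.08 (flop). The difference, chitin minus glucan, was -1.19 (flip) and -0.64 (flop), -0.91 ± 0.39 on average (SD, n = 2). On the flip array the 5 chitin genes (-2.16 to -0.57) did not overlap the 4 glucan genes (-0.45 to 0.43). On the flop array they did overlap, at -1.10 to 0.46 for chitin genes and -0.79 to 0.76 for glucan genes. Without chsF, left out after its values were seen, the difference was -0.91 (flip) and -0.89 (flop). That closeness follows from leaving out the gene whose arrays disagreed. Leaving out each of the 9 genes in turn gave 2-array averages between -1.16 (without eng2) and -0.77 (without exgO). On single arrays the differences ran from -1.39 (flip, without eng2) to -0.41 (flop, without exgO). With 2 arrays an exact test cannot go below p = 0.5, and genes are not replicates, so this difference has no p-value.

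Probe by probe, 6 of 6 chitin probes of the set with both values had a mean below 0 (median -0.82) and 2 of 5 glucan probes did (median 0.175). Of all probes 48.1% had a mean below 0. Among chitin genes outside the set, chsG had tested probes at 0.29 and 0.035, and gfa1 at -0.50 and -0.16. Of the 6 chitin probes, which include both tested chsA probes, 3 passed, all lower. At the shares of all probes 1.48 of 6 would pass in either direction (24.6%) and 0.74 as lower (12.4%). These counts have no test. Of the 5 glucan probes 1 passed, as higher, where 1.23 would pass in either direction and 0.61 as higher (12.2% of all probes). The glucan count was thus near that of the array.

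Synthesis and breakdown differed less, and the difference did not hold up. All 4 synthesis genes are chitin genes, so polymer and role cannot be fully told apart with this set. The 4 synthesis genes chsA, chsE, chsF and agm1 averaged -1.07 (flip) and -0.42 (flop), and without chsF -0.70 (flip) and -0.71 (flop). The 3 breakdown genes chiA1, eng2 and exgO averaged -0.34 (flip) and -0.38 (flop). Synthesis minus breakdown was -0.73 and -0.04, -0.38 ± 0.49 on average (SD, n = 2), which is smaller than the spread between the arrays. Without chsF the arrays read -0.37 (flip) and -0.33 (flop). Without exgO they took opposite signs, -0.39 (flip) and 0.53 (flop), with an average of 0.071. Within chitin alone, where synthesis averaged -0.74 ± 0.46 and the chitinase gene -1.005 ± 0.13, the difference was 0.26 ± 0.59, with -0.16 (flip) and 0.68 (flop). Without chsF it was 0.21 (flip) and 0.39 (flop).

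The breakdown genes of the 2 polymers also differed on average. The chitinase gene chiA1 was at -1.005 and the glucanase genes eng2 and exgO averaged -0.03 ± 0.02, a difference of -0.97 ± 0.16 (SD, n = 2). The glucanase average joins a gene below 0 with one above it, and the 2 transfer genes averaged 0.27 ± 0.12. These group differences have no test either.

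**Figure D3:**
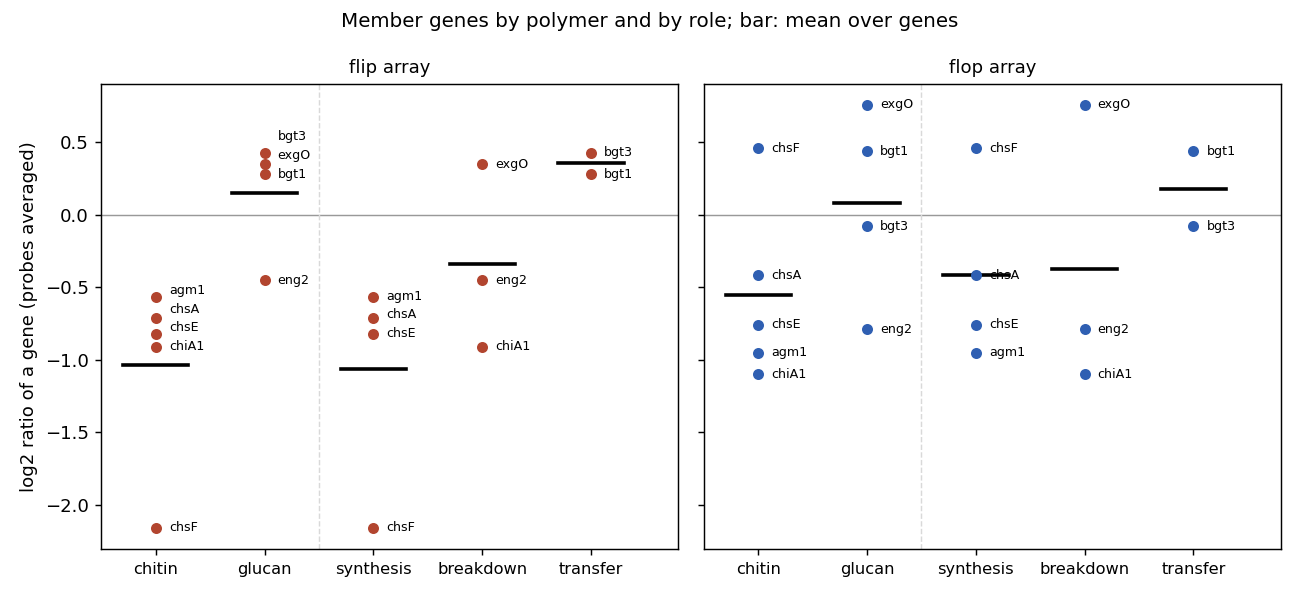
Log2 ratio of each of the 9 genes (points, probes averaged) on the flip array (left) and the flop array (right), grouped by polymer and, right of the dashed line, by role, with bars for the mean over genes. Chitin lies below glucan on both arrays (-1.04 against 0.15, and -0.55 against 0.08), whereas synthesis and breakdown differ by -0.73 (flip) and -0.04 (flop), and chsF changes side between the arrays.

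Other genes of wall synthesis, remodelling and signalling were read from a list of symbols. Of this list 12 genes (24 probes) were on the array and 11 genes (17 probes) had values on both arrays. A single probe passed, for rom2, and it was lower. At the 24.6% of all probes 4.18 of 17 would pass. The median of the 17 means was 0.035, equal to that of all probes, and 8 of 17 were below 0.

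Among chitin genes of that list was gfa1, which encodes glutamine-fructose-6-phosphate amidotransferase, the entry step of the same precursor pathway as agm1. Of its 4 probes, 2 had values on both arrays, at -0.50 ± 0.13 (limma adjusted p = 0.0987) and -0.16 ± 0.014 (adjusted p = 0.411). The other 2 were measured on the flip array alone, at -1.40 and -0.86. Every gfa1 value was below 0 and neither tested probe passed. The chitin synthase gene chsG had probes at 0.29 ± 1.03 and 0.035 ± 0.29, with opposite signs on the arrays for both, and another at -0.19 that only the flip array gave.

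The glucanosyltransferase genes gel1 and gel2 read 0.36 ± 0.028 and 0.19 ± 0.014 (limma adjusted p = 0.142 and 0.342). Together with bgt1 and bgt3, the 4 probes with both values had means between 0.175 and 0.36. By limma 0 of the 4 passed, against 24.6% of all probes (unadjusted p under 0.05: 0 of the 4, and 1035 of all 2265 probes). The wall gene btgE was at -0.10 ± 0.071.

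In wall integrity signalling the values were wider. The GTPase gene rho1, whose product activates glucan synthase and protein kinase C in yeast, read -0.68 (flip) and -2.03 (flop), -1.36 ± 0.95 on average (limma adjusted p = 0.107). The gene rom2 is named for a yeast exchange factor of that GTPase, and its probe 1650 read -2.47 (flip) and -2.44 (flop). That probe fell by 2.46 ± 0.021 (limma adjusted p = 0.0351). Another rom2 probe, 2261, read 0.12 and 0.67 (adjusted p = 0.238), so here too the probes of a gene differed. The kinase gene bck1 was at -0.34 ± 0.11 and rho3 at 0.07 ± 0.13, and neither passed.

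Of the genes of mannosylation and wall proteins, the protein mannosyltransferase gene pmt2 had probes at 0.59 ± 0.064 and -0.23 ± 0.042, and the wall protein gene ecm33 had probes at -0.67 ± 0.028, 0.22 ± 0.33 and 0.27 ± 0.59. By limma 0 of these 5 probes passed, against 24.6% of all probes. An unadjusted p under 0.05 was found for 2 of the 5 and for 1035 of all 2265 probes.

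**Figure D4:**
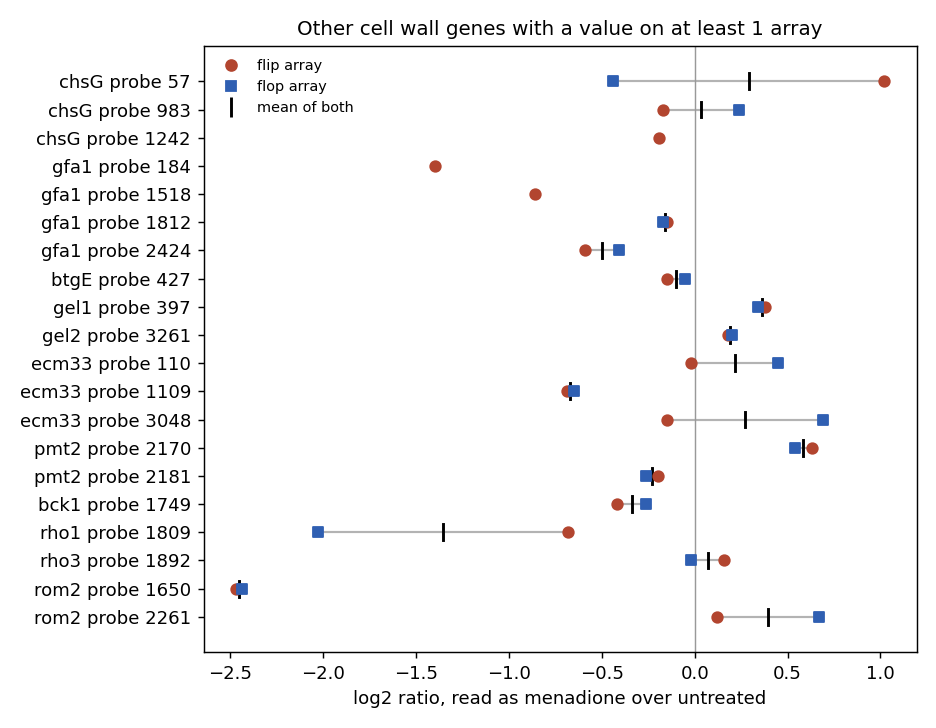
Log2 ratio (x axis, read as menadione over untreated) of 20 probes of other cell wall genes (rows), with circles for the flip array, squares for the flop array and a black tick for the mean of both. The rom2 probe 1650 lies at -2.47 and -2.44 and another rom2 probe at 0.12 and 0.67.

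A mycelial culture can also hold conidiophores, the spore-bearing structures, whose walls are remodelled as they form. Of 13 conidiation genes on the array (18 probes), 6 had a probe with both values, with means from -3.65 (flbC) to 0.78 (medA). Of these, 1 passed as higher (medA) and 2 as lower (flbC and abaA), 3 of 6 against 24.6% of all probes (1.48 of 6). Another medA probe, measured only by the flip array, went the other way at -1.73. The probes of brlA, dewA, flbA, stuA and yA were empty on both arrays. The part of conidiation in the wall values was not tested.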

How the data were processed

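Scanning (GenePix 4000B), ratio calculation (GenePix Pro 3.0) and block-wise LOESS normalization (SAS 8) were done by the authors, per the labels' protocols and the design text. The values were deposited as one normalized ratio per probe and array and were taken as log2. They take both signs, have medians of 0.01 (flip) and 0.10 (flop), and the log base is not stated. A natural logarithm stays possible. How duplicate spots were combined and why cells are empty are points not given in the sources used here. The flip array held 3049 values and the flop array 2267, and 784 probes were measured by the flip array only. Intensities were not used, so signal over background is unknown, and the number of arrays limits the precision.

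Ratios were tested as deposited with lmFit and eBayes of limma (3.58.1, R 4.3.3) across the 2265 probes with both values, with Benjamini-Hochberg adjustment at 0.05. The fit had 1 residual and 1.95 prior degrees of freedom per probe, and was tried on simulated data. The simulated shifts were all larger than the member means, so detection of shifts of their size was not tested. Errors are SDs over 2 arrays, and 95% intervals use the moderated variance. Group means average probes within a gene, then genes. Gene names came from the platform annotation, matched by gene ID to RefSeq (assembly ASM1142v1), where all 9 symbols were the same. Alternatives covered scaling, centring, moderation, thresholds, the unit, the direction and leaving out an array. The members and lists were chosen with earlier results of these data known. Named were all members and, of the other wall genes, those past the threshold and the 6 next by size. The other 4 (btgE, chsG, gel2 and rho3) and the conidiation genes were named after their values were seen.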

Additional observations from a re-analysis of the deposited data

How the results depend on the processing

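With 557 of all probes past the threshold, scaling both arrays to a common spread gave 878, an adjusted p under 0.10 gave 951, keeping probes with 1 value gave 305, and averaging probes of a gene gave 277 genes. The 4 calls among the 11 wall enzyme probes became 6 after scaling and 6 at an adjusted p under 0.10. With probes averaged they became 2 of 9 genes (chiA1 and chsE), beside 277 of all genes. The annotation named 1455 genes with values on both arrays. The 4 calls became 0 when probes with 1 value were kept. At an unadjusted p under 0.05 by limma, that fit held 7 enzyme probes and 1211 of all probes. An adjusted p under 0.01 gave 0 for all probes, the enzymes and the other wall genes by limma (1035, 6 and 5 at an unadjusted p under 0.05). So did the unmoderated statistic (390, 1 and 6 unadjusted) and the flop array with its sign turned (2, 0 and 0 unadjusted, by limma). The single call among other wall genes became 3 after scaling, 2 after centring and 4 at an adjusted p under 0.10. The 1 probe beyond 2-fold turned into 4 probes at a 1.5-fold limit, 0 at a 3-fold limit, 4 as natural logarithms, 0 with the flop sign turned, and 2 to 3 on 1 array alone.

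Turning the flop sign moved chitin minus glucan to -0.28. It turned agm1 to 0.19, chiA1 to 0.095, eng2 to 0.17, exgO probe 2492 to -0.165 and bgt1 to -0.08. Averaged with its other probe, exgO probe 2827 turned to 0.56. Synthesis minus breakdown was 0.26 within chitin and, in an alternative chosen after seeing the data, 0.071 without exgO. On 1 array it ranged from -0.73 to -0.04, and chitin minus glucan from -1.19 to -0.64. The cause of these shifts was not tested. Each ratio already pairs exposed with untreated RNA on 1 array, and no further pairing was possible because both samples form 1 group.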

Other observations

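In the RefSeq annotation of strain FGSC A4, a gene next to chsE is csmB, a chitin synthase gene. A gene with the symbol chs3 (AN1554.4) lies next to chsF. Of the 18 genes that flank the 9 enzyme genes on their chromosomes, 0 had a probe on the array, so the ratios of neighbouring genes could not be set beside those of the enzymes.

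Probes that only the flip array measured lay on either side of 0: 2 of the wall enzymes (bgt1 at 1.18 and chsA at -0.03) and 3 of the other wall genes (gfa1 at -1.40 and -0.86, chsG at -0.19).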
